A study of Homo sapiens with 24 samples.

Results

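Long noncoding RNAs of prostate cancer were followed through a knockdown of METTL3 and a course of androgen in 2 cell lines. The 10 genes were picked by symbol from the 60675 genes of the count tables. They are NEAT1, MALAT1, PVT1, PCAT1, PCA3, PCGEM1, SCHLAP1, DRAIC, ARLNC1 and GAS5. The cells were LNCaP:C4-2, a castration-resistant derivative of the LNCaP prostate cancer line, and 22Rv1, a prostate carcinoma line that arose from a relapsed xenograft. Cells in medium with charcoal-stripped serum and without phenol red were transfected with an siRNA pool, either siMETTL3, which targets METTL3, or siSCR, which has no target. The transfection was repeated 48 h later, and R1881, a synthetic androgen, was then given at 1 nM for 72 h beside cells with ethanol alone (vehicle). The 8 groups of line, pool and treatment held 3 RNA-seq libraries each. Every group, vehicle included, was therefore transfected and grown without serum steroids, and each line stands for 1 tumour.

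Long noncoding RNAs are transcripts without a long reading frame that act as scaffolds, decoys or guides for proteins, or through the act of their own transcription. In the prostate several of them are under the control of androgen, and some are measured as tumour markers. METTL3 is the catalytic subunit of the enzyme that places N6-methyladenosine (m6A) on RNA, most often on the adenosine of a GGAC core. NEAT1 is the scaffold of nuclear paraspeckles and MALAT1 is an abundant RNA of nuclear speckles. Both are single-exon transcripts from neighbouring genes, and MALAT1 is among the best known m6A-bearing noncoding RNAs.

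Because the enzyme that was depleted recognizes GGAC, 100-base exon stretches with the most GGAC are shown for DRAIC, NEAT1, MALAT1, ARLNC1 and GAS5. They are given in the sense of transcription and with each GGAC in capitals. They were read from the GRCh38 genome. The DRAIC stretch lies at chr15:69548383-69548482 on the plus strand and holds 4 cores, and the NEAT1 stretch lies at chr11:65444520-65444619 on the plus strand and also holds 4. The MALAT1 stretch, at chr11:65500274-65500373 on the plus strand, holds 3. The ARLNC1 stretch, at chr16:80837946-80838045 on the minus strand, holds 2, and the GAS5 stretch, at chr1:173868754-173868853 on the minus strand, holds 1. GAS5 has 8 cores in all, so other stretches of it hold as many.
DRAIC: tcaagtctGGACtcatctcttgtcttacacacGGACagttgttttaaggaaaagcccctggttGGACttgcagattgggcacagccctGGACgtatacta
NEAT1: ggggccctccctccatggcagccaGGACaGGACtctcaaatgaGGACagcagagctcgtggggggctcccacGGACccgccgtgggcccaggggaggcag
MALAT1: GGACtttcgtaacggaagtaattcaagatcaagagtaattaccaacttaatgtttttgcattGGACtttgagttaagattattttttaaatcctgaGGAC
ARLNC1: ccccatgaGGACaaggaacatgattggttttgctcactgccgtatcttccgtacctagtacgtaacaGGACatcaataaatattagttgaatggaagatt
GAS5: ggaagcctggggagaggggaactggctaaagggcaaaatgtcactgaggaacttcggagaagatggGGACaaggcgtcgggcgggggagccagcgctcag

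Over whole exon sequences DRAIC was the member with the most GGAC per length, 17 in 2819 bases or 6.03 per kilobase, and 87.0% of the tested genes had fewer per kilobase. GAS5 had the fewest, 8 in 3631 bases or 2.203 per kilobase, with 20.8% of tested genes below it. NEAT1 had 58 in 22767 bases (2.55 per kilobase) and MALAT1 20 in 8755 bases (2.28 per kilobase). ARLNC1 had 3.15 per kilobase, SCHLAP1 3.48, PCAT1 3.46, PCGEM1 4.67, PCA3 2.55 and PVT1 5.10. The median of 19418 tested genes was 3.48 per kilobase, with quartiles of 2.38 and 4.95, so the members lay both above and below the median, between GAS5 and DRAIC. The motif was searched on the transcribed strand only, and a match is not a methylated site.

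R1881 is an androgen, so promoters were searched for TGTTCT, an arm of the androgen response element, on both strands, and for the palindrome of 2 such arms separated by any 3 bases. RefSeq promoters of 300 bases (GRCh38.p14, 250 before and 50 after a start) were read for DRAIC, MALAT1, GAS5, PCA3 and PCGEM1. No promoter of NEAT1, PVT1, PCAT1, SCHLAP1 or ARLNC1 was among those read here. Of the promoters read, those of PCGEM1 and the downstream MALAT1 start held TGTTCT once. Those of DRAIC, GAS5, PCA3 and the upstream MALAT1 start held none. TGTTCT occurs in 14.79% of all 35116 promoters and the palindrome in 0.003%. None of the member promoters read held the palindrome, nor with 1 mismatch, as 0.165% of promoters do. The DRAIC promoter, shown because DRAIC fell with R1881 in every setting, lies at chr15:69561470-69561769 on the plus strand, inside the gene span of the count annotation. The MALAT1 promoter, shown as an example that holds the motif in a member without a called response, lies at chr11:65498795-65499094 on the plus strand with TGTTCT in capitals. No match says only that these letters are not in this window.
DRAIC: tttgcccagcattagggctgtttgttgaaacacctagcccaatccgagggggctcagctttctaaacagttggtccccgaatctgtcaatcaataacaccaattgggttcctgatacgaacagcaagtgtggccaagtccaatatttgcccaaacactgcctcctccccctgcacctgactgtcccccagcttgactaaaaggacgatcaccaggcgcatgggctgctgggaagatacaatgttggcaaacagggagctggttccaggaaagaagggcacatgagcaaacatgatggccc
MALAT1: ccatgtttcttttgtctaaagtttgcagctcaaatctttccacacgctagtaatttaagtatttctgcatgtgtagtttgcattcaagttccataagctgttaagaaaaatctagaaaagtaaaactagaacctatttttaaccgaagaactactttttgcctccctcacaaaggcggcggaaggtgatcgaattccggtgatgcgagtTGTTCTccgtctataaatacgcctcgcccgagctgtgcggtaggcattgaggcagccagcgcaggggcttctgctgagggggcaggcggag

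Libraries held 15716224 to 21306019 counted fragments, with a median of 17671721.5, and 3 counts, the least taken as readable, came to 0.141 CPM (counts scaled to a common library size) at the largest depth and 0.191 CPM at the smallest. Such floors cover counting error only. The labels do not say that libraries of a group came from separate cultures, so p-values measure only the spread between these libraries. All 14 luminal prostate markers, among them HOXB13 and KLK3, averaged at least 1 CPM in both lines, with summed levels of 5117 to 7680 CPM in LNCaP:C4-2 and 2165 to 2356 CPM in 22Rv1. Of 19 markers of other cell types 4 reached 1 CPM in LNCaP:C4-2 (ALB, COL1A1, SYP and VWF) and 3 in 22Rv1 (ALB, COL1A1 and SYP), while PTPRC, CD3E, PECAM1, TP63 and KRT5 stayed below. The 19 summed to 53.3 to 81.7 CPM in vehicle and 47.3 to 81.6 CPM in R1881 libraries of LNCaP:C4-2, and to 857 to 1092 CPM and 161 to 249 CPM in those of 22Rv1, where ALB went from 729 to 989 CPM down to 63.4 to 118 CPM. Their part in the R1881 results was not tested. METTL3, the targeted gene, read 28.8 CPM on average in LNCaP:C4-2 siSCR vehicle libraries and 19.04 with siMETTL3 (log2 change -0.61 ± 0.11 SE, adjusted p = 0.0127, edgeR's quasi-likelihood test, Benjamini-Hochberg adjusted over all genes), a call that was lost without siSCR vehicle replicate 1 (-0.55) or 3 (-0.66) or siMETTL3 vehicle replicate 2 (-0.64) or 3 (-0.55). With R1881 it read 33.4 and 22.4 CPM in that line (-0.57, adjusted p = 0.0256), which is under the 1.5-fold threshold, although without siSCR R1881 replicate 1 the change was -0.65 and passed. In 22Rv1 it read 46.3 and 24.9 CPM in vehicle (-0.89, adjusted p = 1.48e-06) and 50.4 and 22.4 CPM in R1881 (-1.18, adjusted p = 1.29e-08). Each siMETTL3 library lay below each siSCR library of its line and treatment, with an exact two-sided permutation p of 0.1, the smallest that 3 against 3 allows. A member below counts as called at an adjusted p under 0.05 together with at least 1.5-fold. Of the 12 LNCaP:C4-2 libraries the first siMETTL3 vehicle replicate and the first siSCR R1881 replicate differed most from their groups.

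The members spanned a wide range of levels. Per length of exon, in TPM (counts per exon length, scaled to a common total) and as the median of the 24 libraries, GAS5 stood highest at 247 (range 146 to 442), followed by MALAT1 at 100.1 (61.9 to 135) and NEAT1 at 34.7 (15.6 to 63.9). DRAIC followed at 12.9 (5.51 to 27.1), PVT1 at 8.72 (6.48 to 9.90), ARLNC1 at 2.77 (0 to 5.03), PCAT1 at 1.24 (0.266 to 4.42) and SCHLAP1 at 0.893 (0.255 to 2.08). GAS5 hosts small nucleolar RNAs in its introns and its spliced RNA is known as a decoy of the glucocorticoid receptor. PCA3, the RNA of the urine test for prostate cancer, and PCGEM1, a prostate-specific RNA, were at the edge of detection, with 39 counts in 16 of 24 libraries and 4 counts in 2 of 24.

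In LNCaP:C4-2 siSCR vehicle libraries the order in mean TPM was GAS5 161, MALAT1 104, NEAT1 25.96, DRAIC 22.0, PVT1 9.01, PCAT1 3.69, SCHLAP1 0.758, ARLNC1 0.556, PCA3 0.104 and PCGEM1 0. In that order the libraries of NEAT1 and DRAIC overlapped, as did those of SCHLAP1 and ARLNC1. R1881 rearranged the middle of the order. ARLNC1 stood at 4.75 TPM, above PCAT1 at 1.75, and DRAIC at 8.69 overlapped with PVT1 at 9.03. In 22Rv1 vehicle libraries GAS5 stood at 340 TPM, MALAT1 at 109, NEAT1 at 33.1, DRAIC at 16.2, PVT1 at 8.25 and ARLNC1 at 3.73, and PCAT1 at 1.03 overlapped with SCHLAP1 at 0.923. With R1881 NEAT1 stood at 60.5 TPM in 22Rv1 and DRAIC, at 6.57, had moved below PVT1 at 8.34. Exon bases shared with other genes came to 23.32% in MALAT1 and 14.76% in SCHLAP1. In MALAT1 1589 and 396 of them lie opposite 2 unnamed genes listed at 0 in every library, and counting without strand cannot assign reads of such stretches. TPM used the whole exon length, shared bases included. The plot of levels by library shows each gene on its own scale.

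**Figure D1:**
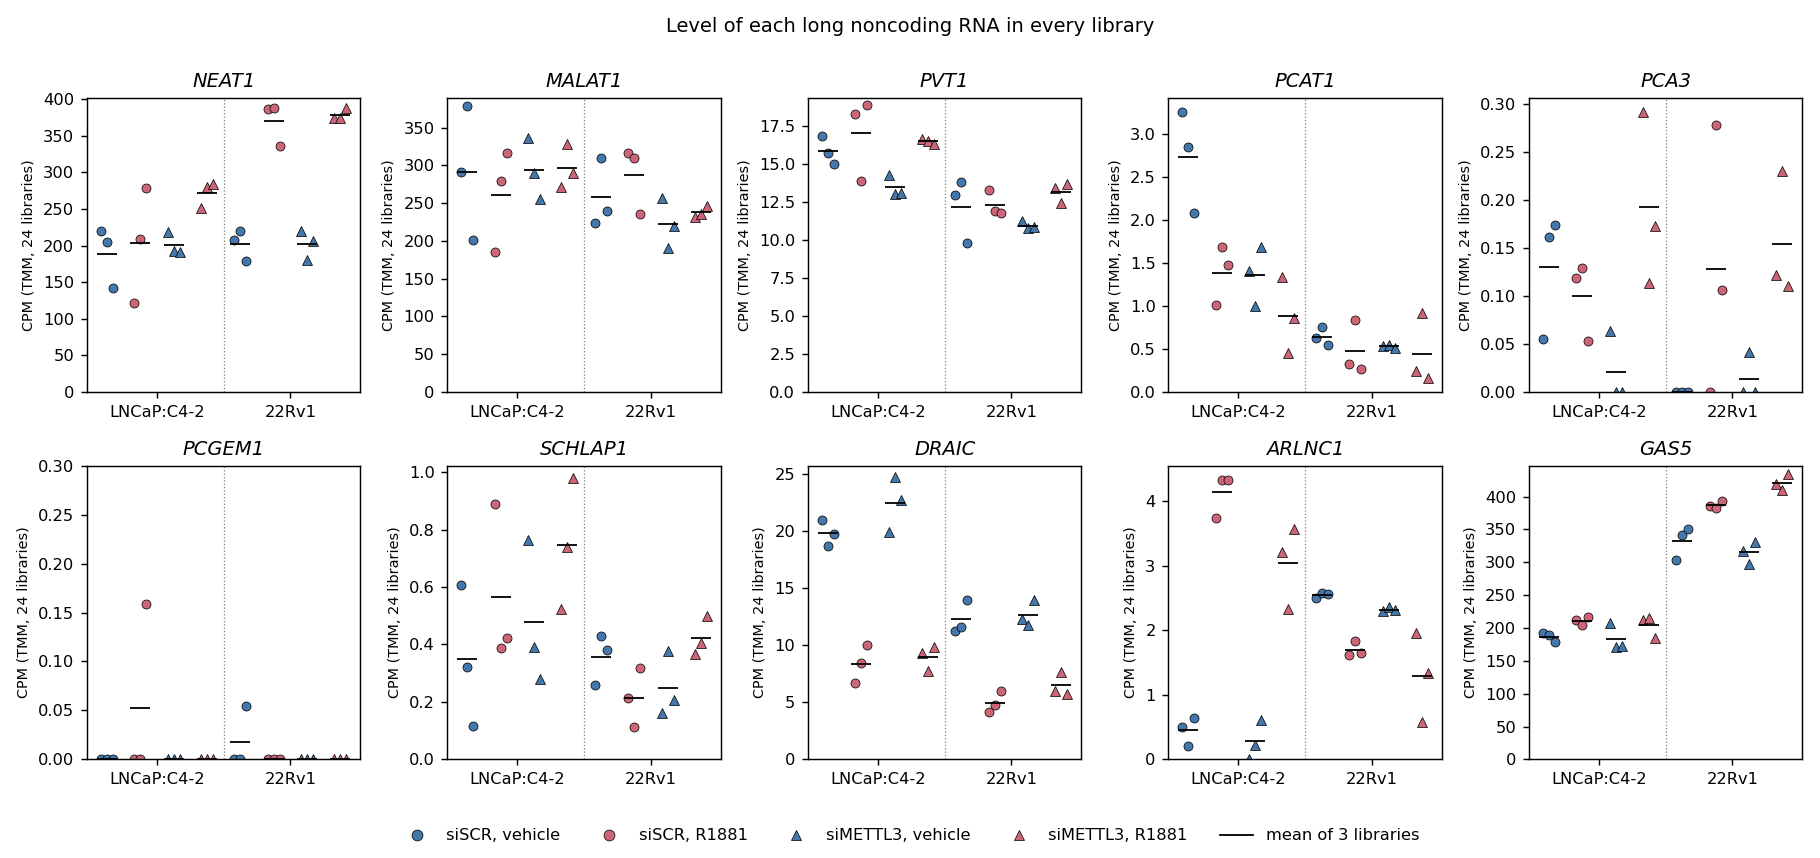
Each panel plots 1 long noncoding RNA in CPM (TMM scaling over all 24 libraries, linear axis from 0), with 1 symbol per library, circles for siSCR, triangles for siMETTL3, blue for vehicle, red for R1881 and a black bar for the mean of 3 libraries. DRAIC is lower with R1881 in both lines, ARLNC1 is higher with R1881 in LNCaP:C4-2 and lower in 22Rv1, NEAT1 reaches 336 to 388 CPM with R1881 in 22Rv1, and PCA3 stays at or below 0.292 CPM and PCGEM1 at or below 0.158 CPM.

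R1881 against vehicle asked which members the androgen moves, separately with each siRNA pool. In LNCaP:C4-2, 8 members passed the filter on low counts (PCA3 and PCGEM1 did not), and in 22Rv1 7 did (SCHLAP1 also fell out). With siSCR, 3 of the 8 were called in LNCaP:C4-2, ARLNC1 higher and DRAIC and PCAT1 lower, where 15.1% of all 16435 tested genes were called. With siMETTL3, 2 of the 8 were called, ARLNC1 higher and DRAIC lower, where 10.6% of all genes were. In 22Rv1, NEAT1 was called higher and DRAIC lower with siSCR, 2 of 7 against 13.8% of all 17865 tested genes, and with siMETTL3 ARLNC1 was called lower in addition, 3 of 7 against 13.5%. With library size alone in place of TMM, the LNCaP:C4-2 siSCR split over all genes moved from 1215 higher and 1269 lower to 926 higher and 1800 lower, and the median of all genes from -0.03 to -0.15 (log2), and the called members stayed called.

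DRAIC, an RNA that is lost as prostate cancer advances and that binds the IκB kinase complex, fell with R1881 in both lines and with both pools. In LNCaP:C4-2 with siSCR it read 20.99, 18.7 and 19.8 CPM in the vehicle libraries and 6.69, 8.47 and 10.0 CPM in the R1881 libraries. The lowest vehicle library was thus well above the highest R1881 library, and the log2 fold change was -1.24 ± 0.15 (SE), 2.37-fold lower, with an adjusted p of 2.4e-05. With siMETTL3 the vehicle libraries read 19.95, 24.7 and 22.8 CPM and the R1881 libraries 9.33, 7.78 and 9.85 CPM, again without overlap (-1.31 ± 0.15, 2.48-fold lower, adjusted p = 1.6e-05).

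In 22Rv1, where DRAIC started lower, the siSCR libraries read 11.3, 11.6 and 13.97 CPM in vehicle and 4.15, 4.79 and 6.01 CPM in R1881. The groups lay apart, with a log2 fold change of -1.31 ± 0.15 (2.47-fold lower, adjusted p = 7.6e-07). With siMETTL3 they read 12.3, 11.8 and 13.96 CPM in vehicle and 6.03, 7.68 and 5.77 CPM in R1881, and the groups again lay apart (-0.99 ± 0.15, 1.98-fold lower, adjusted p = 1.95e-05). DRAIC was called in each fit that left out 1 library, with log2 changes of -1.47 to -0.90 over both lines and pools. Of its exon bases 5.64% are shared with an unnamed gene on the opposite strand that averaged 13.9 counts, and the counting did not use strand, so reads of that stretch cannot be assigned to one or the other. NFKBIA, which encodes the inhibitor that the IκB kinase targets, was called higher with R1881 in LNCaP:C4-2 (log2 1.25 with siSCR and 1.61 with siMETTL3) and in 22Rv1 with siMETTL3 (0.70), and read 0.48 in 22Rv1 with siSCR, under the fold threshold (adjusted p = 0.000267). NFKBIA is on a list of reported partners and targets that also holds BRCA2 and MYC. With R1881 and siSCR, 2 of its 28 tested genes were called higher and 2 lower in LNCaP:C4-2, against 15.1% of all genes. With siMETTL3 3 were higher and 0 lower, against 10.6%. In 22Rv1 0 of 29 were called with siSCR, against 13.8% (14 had an unadjusted p under 0.05, as had 7617 of all 17865 genes, and DESeq2 called 0). With siMETTL3 2 were higher and 1 lower, against 13.5%.

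ARLNC1, an androgen-regulated RNA, moved in opposite directions in the 2 lines. In LNCaP:C4-2 with siSCR it read 0.497, 0.215 and 0.637 CPM in vehicle (9, 4 and 11 counts) and 3.73, 4.33 and 4.33 CPM in R1881 (63, 67 and 82 counts). Each R1881 library was above each vehicle library, and the log2 fold change was 3.18 ± 0.45 with a 95% interval of 2.23 to 4.14 (9.09-fold, adjusted p = 8.97e-05). With siMETTL3 the vehicle libraries held 0, 4 and 11 counts, or 0, 0.223 and 0.616 CPM, and the R1881 libraries 3.21, 2.33 and 3.57 CPM. The groups did not overlap (3.37 ± 0.50, 10.3-fold, adjusted p = 0.000177), and a count of 0 allows up to 3 counts, 0.191 CPM at the lowest depth. The call held without any single library, with log2 changes of 2.84 to 3.51 with siSCR and 2.84 to 4.61 with siMETTL3.

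In 22Rv1 ARLNC1 was already at 2.50, 2.57 and 2.57 CPM in siSCR vehicle libraries, and read 1.62, 1.84 and 1.65 CPM in R1881. These groups did not overlap either, but the difference missed the threshold (-0.59 ± 0.27, 95% interval -1.14 to -0.03, adjusted p = 0.0977). With siMETTL3 it read 2.30, 2.35 and 2.31 CPM in vehicle and 1.95, 0.577 and 1.33 CPM in R1881 and fell (-0.88 ± 0.28, 1.84-fold lower, adjusted p = 0.0201). That call rested on single libraries, since it was lost without siMETTL3 R1881 replicate 2, the lowest library (-0.53, adjusted p = 0.137), without siMETTL3 R1881 replicate 3 (-0.91, adjusted p = 0.0505) or without siMETTL3 vehicle replicate 2 (-0.86, adjusted p = 0.0536).

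The protein-coding genes on either side of ARLNC1 on chromosome 16, chosen after their values were seen, were both called higher with R1881 in LNCaP:C4-2 and neither was called in 22Rv1. CDYL2, a chromodomain gene 24406 bases away on the same strand, was called higher with R1881 in LNCaP:C4-2 (log2 2.46 with siSCR and 2.12 with siMETTL3) and read -0.46 and -0.49 in 22Rv1, with adjusted p of 2.6e-05 and 1.01e-05 but under the fold threshold. CMC2, a mitochondrial assembly gene 73853 bases away on the other side, was called higher in LNCaP:C4-2 (1.43 and 1.15) and read -0.25 and -0.17 in 22Rv1 (adjusted p = 0.0416 and 0.176).

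NEAT1 rose with R1881 in 22Rv1. With siSCR it read 208, 220 and 179 CPM in vehicle and 386, 388 and 336 CPM in R1881. The R1881 libraries were all above the vehicle libraries, and the log2 fold change was 0.86 ± 0.08 (1.82-fold, adjusted p = 4.33e-08). With siMETTL3 it read 219, 181 and 206 CPM in vehicle and 374, 375 and 387 CPM in R1881, again apart (0.88 ± 0.08, 1.84-fold, adjusted p = 3.16e-08). The 2 pools gave nearly the same increase, and both calls held without any single library, with log2 changes of 0.78 to 0.94. Beside this increase the mitochondrial share of 22Rv1 libraries went from 5.04% to 7.45% in vehicle down to 3.93% to 5.28% in R1881, and COL1A1, a collagen of fibroblasts, from 21.6 to 29.1 CPM down to 15.1 to 16.8 CPM. Their part in the result was not tested. FRMD8, the nearest named gene upstream of NEAT1 at 9249 bases, chosen after its values were seen, read 0.40 and 0.43 in the same 2 comparisons, under the fold threshold (adjusted p = 0.000609 and 0.000241).

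In LNCaP:C4-2 NEAT1 was not called. With siSCR it read 220, 205 and 143 CPM in vehicle and 121, 210 and 278 CPM in R1881, so the groups overlapped fully (0.10 ± 0.22, 95% interval -0.37 to 0.56, adjusted p = 0.786). With siMETTL3 it read 219, 193 and 192 CPM in vehicle and 251, 280 and 284 CPM in R1881. Those groups lay apart but did not pass (0.45 ± 0.22, interval -0.01 to 0.92, adjusted p = 0.185). The gene-level counts do not separate the short and the long, paraspeckle-forming NEAT1 transcript, which share their start.

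PCAT1, an RNA of chromosome 8 reported to repress BRCA2, was low throughout and fell with R1881 in LNCaP:C4-2 with siSCR. There it read 3.26, 2.85 and 2.08 CPM in vehicle (59, 53 and 36 counts) and 1.01, 1.68 and 1.48 CPM in R1881 (17, 26 and 28 counts). The groups did not overlap (-0.98 ± 0.33, interval -1.68 to -0.28, 1.98-fold lower, adjusted p = 0.0395). The call was lost with DESeq2 (adjusted p = 0.0553), with replicates blocked by number (0.0643), and without siSCR vehicle replicate 1 (-0.84, adjusted p = 0.15) or 2 (-0.95, 0.103) or siSCR R1881 replicate 1 (-0.79, 0.121) or 3 (-1.03, 0.0848). With siMETTL3 the LNCaP:C4-2 groups overlapped, at 1.40, 1.01 and 1.68 CPM in vehicle and 1.34, 0.454 and 0.864 CPM in R1881 (-0.61, interval -1.41 to 0.19, adjusted p = 0.307). BRCA2, the DNA repair gene, was called lower in LNCaP:C4-2 with siSCR (-0.74, adjusted p = 0.039), the same comparison in which PCAT1 fell, and read -0.70 with siMETTL3 (adjusted p = 0.0689). With siSCR, 2 of the 28 tested partner genes were called higher and 2 lower there, against 15.1% of all genes.

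GAS5 was higher in each R1881 library than in each vehicle library of 22Rv1 with both pools and of LNCaP:C4-2 with siSCR, each time by less than 1.5-fold. With siSCR it read 304, 342 and 351 CPM in vehicle and 386, 383 and 394 CPM in R1881 (0.22 ± 0.07, 1.16-fold, adjusted p = 0.0157). With siMETTL3 it read 317, 298 and 331 CPM in vehicle and 419, 409 and 434 CPM in R1881 (0.39 ± 0.07, 1.31-fold, adjusted p = 9.39e-05). The increase in 22Rv1 was thus under the fold threshold with both pools. In LNCaP:C4-2 the groups lay apart with siSCR and overlapped with siMETTL3, and its changes were 0.17 (interval -0.03 to 0.36) and 0.16 (-0.04 to 0.36), with adjusted p of 0.212 and 0.268. GAS5 shares 42 of its exon bases, 1.16%, with GAS5-AS1.

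MALAT1 and PVT1, the RNA gene beside MYC, had no called response. The log2 change of MALAT1 was -0.17 (interval -0.60 to 0.27) and 0.03 (-0.41 to 0.46) in LNCaP:C4-2, against 0.15 (-0.09 to 0.39) and 0.07 (-0.17 to 0.31) in 22Rv1. In 22Rv1 both intervals lay inside 1.5-fold either way. PVT1 read 0.10 and 0.31 in LNCaP:C4-2, against 0.01 and 0.25 in 22Rv1, siSCR first, with adjusted p of 0.616, 0.111, 0.966 and 0.135, and with siMETTL3 its R1881 libraries lay above its vehicle libraries in both lines (16.3 to 16.6 against 13.01 to 14.3 CPM, and 12.4 to 13.7 against 10.7 to 11.2 CPM). MYC, 53099 bases from PVT1, read 0.29 with siSCR (adjusted p = 0.0281, under the fold threshold) and was called higher with siMETTL3 at 0.59 in LNCaP:C4-2, and read -0.06 and 0.02 in 22Rv1.

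SCHLAP1, an RNA that opposes the SWI/SNF chromatin remodeller, held 2 to 17 counts per library. In LNCaP:C4-2 it changed by 0.67 (interval -0.54 to 1.88) and 0.68 (-0.44 to 1.79), intervals that hold both no change and an increase of over 2-fold. PCA3 held at most 5 counts in any library and was not tested. In LNCaP:C4-2 it held 1, 3 and 3 counts in siSCR vehicle libraries and 2, 2 and 1 with R1881, and 1, 0 and 0 in siMETTL3 vehicle libraries and 5, 2 and 3 with R1881. In 22Rv1 it held 0, 0 and 0 counts in siSCR vehicle libraries and 0, 5 and 2 with R1881, and 0, 1 and 0 in siMETTL3 vehicle libraries and 2, 4 and 2 with R1881. The counts with R1881 were thus the higher in sum in each setting except LNCaP:C4-2 with siSCR, at a depth where 3 counts are the least taken as readable. PRUNE2, in whose intron PCA3 lies on the opposite strand, averaged 6735 counts and had no called R1881 response in either line (0.09 and 0.14 in LNCaP:C4-2, -0.21 and -0.32 in 22Rv1). Counting was without strand, so intron reads of PRUNE2 that fall on PCA3 exons cannot be told apart from PCA3. PCGEM1 held 3 counts in LNCaP:C4-2 siSCR R1881 replicate 3, 1 count in 22Rv1 siSCR vehicle replicate 3 and 0 in all other libraries, which allows up to 0.191 CPM.

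**Figure D2:**
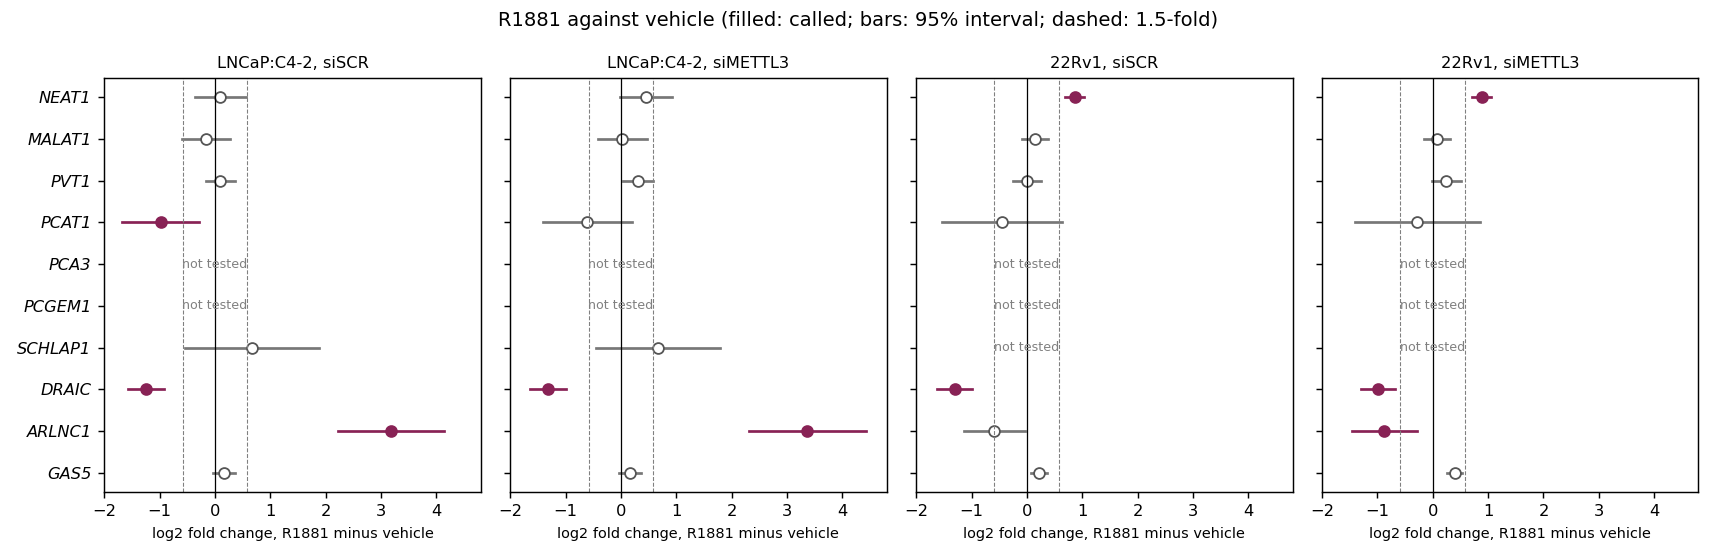
Each panel gives, for 1 line and siRNA pool, the log2 fold change of R1881 against vehicle (x axis) of the members (y axis), with 95% intervals as bars, filled points for called members and dashed lines at 1.5-fold. DRAIC lies left of the lower line in all 4 panels, from -0.99 to -1.31, and ARLNC1 at 3.18 and 3.37 in LNCaP:C4-2 against -0.59 and -0.88 in 22Rv1.

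The knockdown, siMETTL3 against siSCR, asked whether the members change when METTL3 RNA is lowered. The depletion was partial, with METTL3 at 19.04 against 28.8 CPM in LNCaP:C4-2 vehicle and 22.4 against 33.4 CPM in R1881 libraries. In 22Rv1 METTL3 read 24.9 against 46.3 and 22.4 against 50.4 CPM. METTL3 itself was under the fold threshold in LNCaP:C4-2 with R1881. Without a full depletion, a lack of calls does not settle whether a member depends on METTL3. No member passed in any of the 4 comparisons with edgeR's quasi-likelihood test. In LNCaP:C4-2, 0 of 8 were called in vehicle, where 1.2% of all genes were, and 0 of 8 in R1881, where 0.7% were. In 22Rv1, 0 of 7 were called in vehicle against 0.202% of all genes, and 0 of 7 in R1881 against 3.29%. At an unadjusted p under 0.05 the counts were 1, 0, 0 and 2 members in that order, and DESeq2 called 0 in each. Over all genes 2636 and 4702 of 16435 in LNCaP:C4-2 and 2604 and 5712 of 17865 in 22Rv1 had such a p, vehicle first. Of the 30 tests of a member, 17 had a 95% interval within 1.5-fold either way, 8 of 16 in LNCaP:C4-2 and 9 of 14 in 22Rv1. Log2 changes ran from -1.02 to 0.42 in LNCaP:C4-2 and from -0.42 to 0.36 in 22Rv1. With backgrounds this low, 0 called members is near what the share over all genes gives. The backgrounds themselves turned on single libraries, while the count of called members stayed at 0 in each fit that left out 1 library. In LNCaP:C4-2 vehicle libraries 197 genes were called, against 6, 129 and 0 without siSCR vehicle replicate 1, 2 and 3, and 339 and 8 without siMETTL3 vehicle replicate 1 and 2. In R1881 libraries of that line 115 were called, against 1497, 7 and 10 without siSCR R1881 replicate 1, 2 and 3, and 1, 11 and 54 without siMETTL3 R1881 replicate 1, 2 and 3, and DESeq2 called 470. In 22Rv1 vehicle libraries 36 were called, against 87 and 23 without siSCR vehicle replicate 1 and 2, and 228 and 15 without siMETTL3 vehicle replicate 1 and 2. In 22Rv1 R1881 libraries 587 were called, against 349 without siSCR R1881 replicate 2 and 309 without siMETTL3 R1881 replicate 1.

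The tightest intervals belonged to NEAT1 and GAS5 in 22Rv1. NEAT1 in 22Rv1 vehicle libraries read 208, 220 and 179 CPM with siSCR and 219, 181 and 206 CPM with siMETTL3, so the ranges overlapped fully and the 95% interval of the log2 change was -0.17 to 0.17. In R1881 it was -0.15 to 0.19. GAS5 in 22Rv1 changed by -0.07 (-0.21 to 0.07) in vehicle and 0.10 (-0.04 to 0.24) in R1881, and in LNCaP:C4-2 by -0.04 in both treatments (-0.24 to 0.16 and -0.24 to 0.15).

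The member furthest from 0 was PCAT1 in LNCaP:C4-2 vehicle libraries, at 3.26, 2.85 and 2.08 CPM with siSCR and 1.40, 1.01 and 1.68 CPM with siMETTL3. The groups did not overlap, and the log2 change was -1.02 ± 0.33 (interval -1.72 to -0.32) with an adjusted p of 0.132. It shares its siSCR vehicle libraries with the R1881 comparison described above. MALAT1 in 22Rv1 read 316, 309 and 235 CPM with siSCR and R1881 and 231, 236 and 246 CPM with siMETTL3 and R1881, an overlap, with a change of -0.29 (-0.53 to -0.05, adjusted p = 0.0924). DRAIC in the same libraries read 4.15, 4.79 and 6.01 CPM and 6.03, 7.68 and 5.77 CPM (0.36, 0.03 to 0.70, adjusted p = 0.127). NEAT1 in LNCaP:C4-2 with R1881 read 121, 210 and 278 CPM with siSCR and 251, 280 and 284 CPM with siMETTL3 (0.42, -0.04 to 0.89, adjusted p = 0.21). The intervals of ARLNC1, SCHLAP1 and PCAT1 reached past 1.5-fold in at least one direction wherever they were tested.

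**Figure D3:**
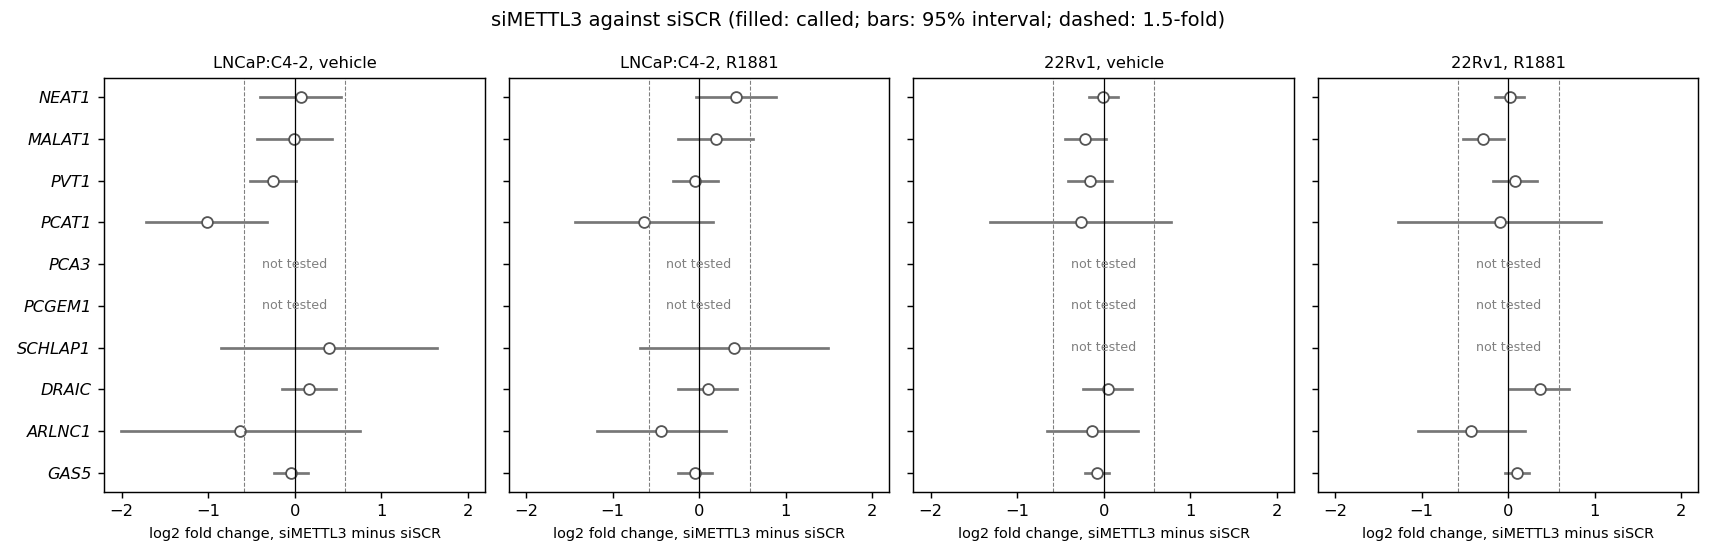
Each panel gives, for 1 line and treatment, the log2 fold change of siMETTL3 against siSCR (x axis) of the members (y axis), with 95% intervals as bars and dashed lines at 1.5-fold. All points are open, since no member was called, and the values lie between -1.02 and 0.42, with the widest bars for SCHLAP1, ARLNC1 and PCAT1.

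Whether the R1881 response differed between the pools was tested as an interaction, with no fold threshold. No member passed in LNCaP:C4-2 (0 of 8, where 0.0% of all genes passed) or in 22Rv1 (0 of 7, where 0.0168% of all genes passed). The lowest adjusted p of a member was 0.59 and 0.829, and 0 members in each line had an unadjusted p under 0.05 with edgeR. DESeq2 called 0 members in either line. Over all genes of LNCaP:C4-2 edgeR called 0 with 2037 at an unadjusted p under 0.05, and DESeq2 called 56. For DRAIC the response with siMETTL3 minus that with siSCR was -0.07 in LNCaP:C4-2 (interval -0.53 to 0.39) and 0.32 in 22Rv1 (-0.12 to 0.76). For NEAT1 the difference was 0.35 (-0.30 to 1.01) in LNCaP:C4-2 and 0.02 (-0.22 to 0.26) in 22Rv1, the latter within 1.5-fold. For ARLNC1 it was 0.19 (-1.33 to 1.70) and -0.29 (-1.11 to 0.52).

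Between the lines the members differed more often, as did genes at large. In a fit of all 24 libraries, 4 of 8 tested members differed between 22Rv1 and LNCaP:C4-2 in siSCR vehicle libraries, against 59.2% of all 19437 tested genes, 6 of 8 in siSCR R1881 libraries against 60.1%, 4 of 8 in siMETTL3 vehicle libraries against 58.4% and 2 of 8 in siMETTL3 R1881 libraries against 60.7%. These shares do not set the members apart. Fewer cells of a type and less RNA per cell cannot be told apart in bulk libraries. With library size alone the median of all genes moved from 0.03, 0.09, 0.02 and 0.10 to 0.18, 0.29, 0.24 and 0.30 (log2) in these comparisons.

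GAS5 and ARLNC1 were called in all 4 settings. GAS5 was higher in 22Rv1, at 304 to 351 CPM against 178 to 192 CPM in siSCR vehicle libraries, with log2 differences of 0.83, 0.88, 0.78 and 1.05 (siSCR vehicle, siSCR R1881, siMETTL3 vehicle, siMETTL3 R1881) and adjusted p of 6.69e-10, 2.21e-10, 2.33e-09 and 6.92e-12. ARLNC1 was higher in 22Rv1 in vehicle (2.50 and 2.97, adjusted p = 5.7e-06 and 1.78e-06) and lower in R1881 (-1.28 and -1.24, adjusted p = 0.000824 and 0.00214). The sign of its difference between the lines thus changed with the androgen, while its libraries did not overlap in any of the 4 settings.

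DRAIC and PCAT1 were lower in 22Rv1. DRAIC differed by -0.69, -0.76 and -0.83 in the first 3 settings and was called there, and by -0.47 in siMETTL3 R1881 libraries (adjusted p = 0.0112, under the fold threshold). With library size alone, relative to a median of all genes that moved up, DRAIC read -0.54 and -0.55 in the siSCR settings and was no longer called. The call in siSCR vehicle libraries was also lost with a filter of at least 10 counts in every library. PCAT1 differed by -2.08, -1.54 and -1.34, the last lost without LNCaP:C4-2 siMETTL3 vehicle replicate 3 (-1.11, adjusted p = 0.0501), and by -0.98 in siMETTL3 R1881 libraries (adjusted p = 0.0782). That last difference was called at -2.05 without 22Rv1 siMETTL3 R1881 replicate 2, the 22Rv1 library with the most PCAT1, and at -1.32 without LNCaP:C4-2 siMETTL3 R1881 replicate 2, the LNCaP:C4-2 library with the least.

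NEAT1 was higher in 22Rv1 in siSCR R1881 libraries (336 to 388 CPM against 121 to 278 CPM, log2 difference 0.87 ± 0.18, adjusted p = 9.1e-05), a difference of 0.57, under the fold threshold, without LNCaP:C4-2 siSCR R1881 replicate 1. In vehicle it read 0.10 and 0.01, and in siMETTL3 R1881 libraries 0.48 (adjusted p = 0.0162, under the fold threshold). SCHLAP1 was called lower in 22Rv1 in siSCR R1881 libraries only among the 4 settings (0.111 to 0.319 CPM against 0.388 to 0.888 CPM, -1.36 ± 0.56, adjusted p = 0.0311). That call was lost with DESeq2 (0.068), with no filter on low counts (0.0673), with library size alone (-1.15, 0.0652), and without LNCaP:C4-2 siSCR R1881 replicate 1 (-0.92, 0.203) or 22Rv1 siSCR R1881 replicate 1 (-1.34, 0.0704) or 2 (-1.04, 0.129). PVT1 was lower in 22Rv1 in all 4 settings by less than 1.5-fold (-0.38, -0.47, -0.30 and -0.32, adjusted p = 0.00737, 0.00129, 0.0339 and 0.0204), although without LNCaP:C4-2 siSCR R1881 replicate 2 the second was -0.60 and called. MALAT1 was called in none, with differences of -0.40 to 0.14. PCA3 passed no filter in this fit, but with DESeq2 it was called lower in 22Rv1 siSCR vehicle libraries (adjusted p = 0.0373), where LNCaP:C4-2 held 1, 3 and 3 counts and 22Rv1 0, 0 and 0. So few counts, taken without strand inside a PRUNE2 intron, cannot be assigned to PCA3 with certainty.

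**Figure D4:**
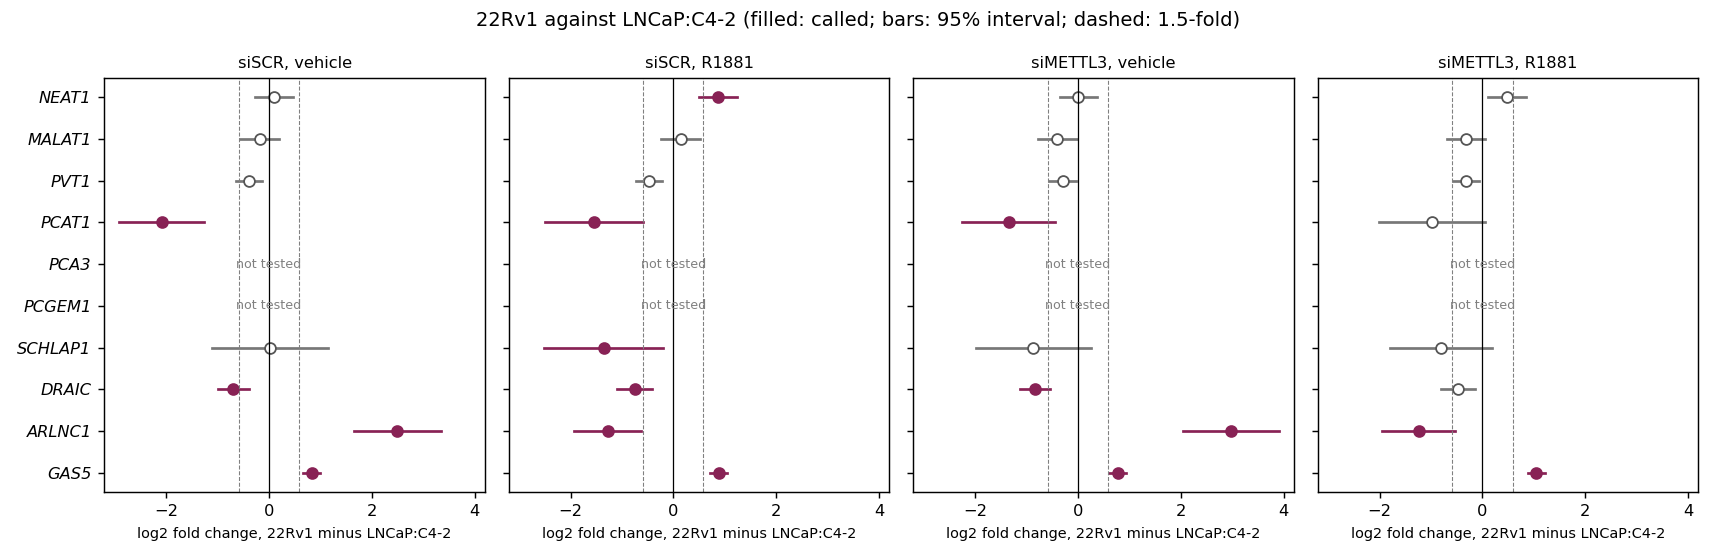
Each panel gives, for 1 siRNA pool and treatment, the log2 difference of 22Rv1 minus LNCaP:C4-2 (x axis) of the members (y axis), with 95% intervals as bars, filled points for called members and dashed lines at 1.5-fold. GAS5 lies at 0.78 to 1.05 in all 4 panels, and ARLNC1 at 2.50 and 2.97 in vehicle and at -1.28 and -1.24 in R1881.

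The R1881 responses of the 2 lines were compared directly as a difference of differences, with no fold threshold. With siSCR, 2 of 8 members passed, ARLNC1 and NEAT1, against 16.8% of all genes, and with siMETTL3 1 of 8, ARLNC1, against 15.3%. The response of ARLNC1 in 22Rv1 minus that in LNCaP:C4-2 was -3.77 ± 0.52 (log2, adjusted p = 7.19e-06) with siSCR and -4.21 ± 0.57 (adjusted p = 6.52e-06) with siMETTL3, and it passed without any single library (-4.12 to -3.45 and -5.46 to -3.78). For NEAT1 it was 0.77 ± 0.25 (interval 0.26 to 1.28, adjusted p = 0.033) with siSCR and 0.47 (-0.04 to 0.98, adjusted p = 0.221) with siMETTL3. The former fell short in 9 of 12 fits that left out 1 library, with values of 0.43 to 1.00 over the 12, and was 0.43 (adjusted p = 0.124) without LNCaP:C4-2 siSCR R1881 replicate 1, the library with the least NEAT1. The DRAIC responses of the 2 lines differed by -0.06 (interval -0.52 to 0.39) and 0.36 (-0.08 to 0.81).

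The knockdown effects of the 2 lines were compared in the same way. No member passed in vehicle (0 of 8 with edgeR, against 0.458% of all genes) or in R1881 (0 of 8, against 0.0926%). No member had an unadjusted p under 0.05 in either, and DESeq2 called 0 members. The differences for NEAT1 were -0.09 (interval -0.60 to 0.42) and -0.39 (-0.90 to 0.12), and those for MALAT1 -0.22 (-0.75 to 0.31) and -0.46 (-0.99 to 0.07).

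NEAT1 and MALAT1 lie 52222 bases apart on chromosome 11 on the same strand, and varied together among LNCaP:C4-2 libraries. Of the 12 libraries of that line, siSCR R1881 replicate 1 was lowest for both (121 CPM NEAT1, 185 CPM MALAT1) and siSCR vehicle replicate 3 was second lowest for both (143 and 202 CPM). Pearson's r of their log2 CPM over the 12 libraries was 0.76 and Spearman's rho 0.60, but r was 0.16 without the 2 libraries farthest from the median of NEAT1. In 22Rv1, where NEAT1 separated into 2 treatment groups, no value over all 12 libraries is given. There MALAT1 ran from 190 to 310 CPM in vehicle and from 231 to 316 CPM in R1881. The points of a line share depth and scaling, and the relation in LNCaP:C4-2 rests on the 2 libraries left out.

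**Figure D5:**
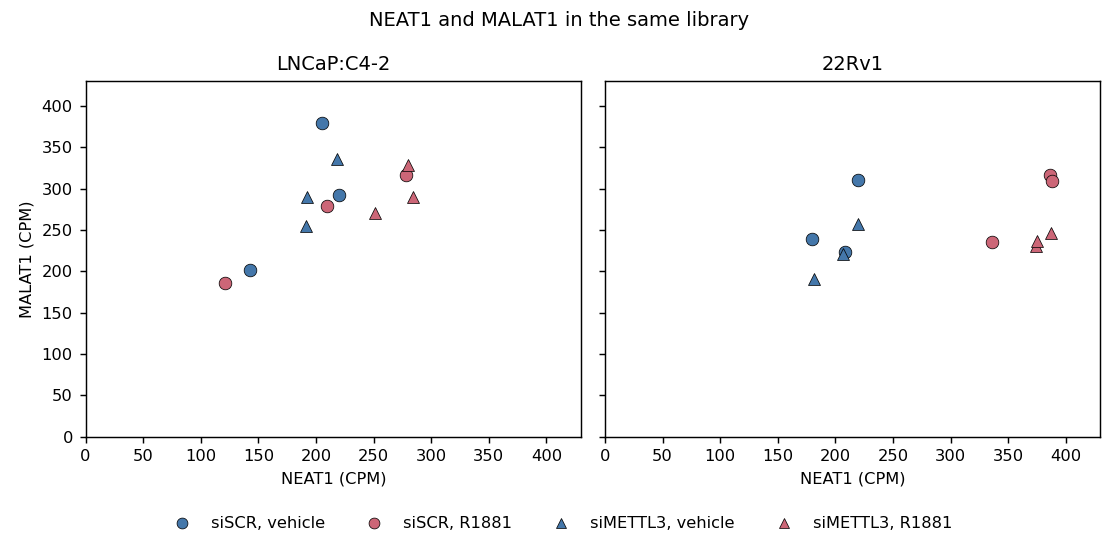
Each symbol is 1 library, placed by NEAT1 (x axis, CPM) and MALAT1 (y axis, CPM) on linear axes from 0, with circles for siSCR, triangles for siMETTL3, blue for vehicle and red for R1881. In LNCaP:C4-2 the libraries at 121 and 143 CPM NEAT1 also have the least MALAT1, and in 22Rv1 the R1881 libraries sit at 336 to 388 CPM NEAT1 with MALAT1 in the same range as in vehicle.

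Genes tied to the members by function were read from lists. Of 32 genes for paraspeckle proteins, the partners of NEAT1, 1 was called higher and 3 lower with R1881 in LNCaP:C4-2 with siSCR, where 15.1% of all genes were called (list median -0.28, all genes -0.03). ZC3H6 rose by 0.82, and those that fell included RBM14 and SFPQ, RNA-binding proteins of the paraspeckle, at -0.68 and -0.64. With siMETTL3 in that line edgeR called 0 of 32, against 10.6% of all genes (6 had an unadjusted p under 0.05, as had 4833 of all 16435 genes, and DESeq2 called 0). In 22Rv1, the line in which NEAT1 rose, it called 0 of 32 with siSCR, against 13.8% (16 had an unadjusted p under 0.05, as had 7617 of all 17865 genes, and DESeq2 called 0). With siMETTL3 it called 0 of 32 there, against 13.5% (13 had an unadjusted p under 0.05, as had 7542 of all 17865 genes, and DESeq2 called 0).

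Of the other small nucleolar RNA host genes, kin of GAS5, 28 were tested in LNCaP:C4-2 and 27 in 22Rv1. Against 15.1% of all genes called with R1881 and siSCR in LNCaP:C4-2, 0 rose and 2 fell, SNHG20 (-0.98) and SNHG10 (-0.65). In 22Rv1 with siSCR edgeR called 0, against 13.8% (9 had an unadjusted p under 0.05, as had 7617 of all 17865 genes, and DESeq2 called 0). With R1881 and siMETTL3 edgeR called 0 in LNCaP:C4-2, against 10.6% (4 had an unadjusted p under 0.05, as had 4833 of all 16435 genes, and DESeq2 called 0), and 1 in 22Rv1, SNHG12 (0.63), against 13.5%. The list median of the log2 change was -0.15 and 0.04 in LNCaP:C4-2 with siSCR and siMETTL3 (all genes -0.03 and -0.00), and 0.06 and 0.30 in 22Rv1 (all genes 0.00 and 0.00). The knockdown called DANCR in LNCaP:C4-2 vehicle libraries (-0.59, against 1.2% of all genes called), SNHG16 in 22Rv1 vehicle libraries (-0.61, against 0.202%), and SNHG19 and SNHG32 in 22Rv1 R1881 libraries (0.64 and 0.59, against 3.29%).

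Of 56 further long noncoding RNAs of cancer, 51 were in the files and 30 were tested in each line. In LNCaP:C4-2 with siSCR 5 rose and 3 fell with R1881, where 15.1% of all genes were called, among them PART1 (1.70), LINC-PINT (1.52), PCAT6 (1.09) and CTBP1-AS (1.07) upward and LINC01138 (-1.49) and TMPO-AS1 (-0.89) downward. With siMETTL3 4 rose and 5 fell, against 10.6% of all genes called. In 22Rv1 with siSCR 2 rose, LINC-PINT (1.25) and MIR22HG (1.14), and 6 fell, among them MIR99AHG (-3.25), H19 (-1.68), PCAT14 (-0.87) and PART1 (-0.68), and with siMETTL3 2 rose and 8 fell. In that line 13.8% of all genes were called with siSCR and 13.5% with siMETTL3. Like ARLNC1, whose fall in 22Rv1 was called with siMETTL3 alone, PART1, a prostate-rich androgen-regulated RNA, rose in LNCaP:C4-2 and fell in 22Rv1. It was also the only one of these genes called in the LNCaP:C4-2 knockdown, in R1881 libraries (-1.50, against 0.7% of all genes), a comparison in which DESeq2 called 0 of them. In the 22Rv1 knockdown with R1881 DLEU2 was the only one called (-0.85, against 3.29%). In vehicle edgeR called 0 of 30 in either line, against 1.2% of all genes in LNCaP:C4-2 and 0.202% in 22Rv1, and DESeq2 called 0 in each. An unadjusted p under 0.05 was held by 2 in LNCaP:C4-2, beside 2636 of all 16435 genes, and by 4 in 22Rv1, beside 2604 of all 17865.

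As a check of the androgen itself, 12 of 12 known androgen-induced genes rose in LNCaP:C4-2 with either pool (median 3.94 and 3.84, all genes -0.03 and -0.00), among them KLK3 (4.08 with siSCR) and SLC45A3 (5.29). Of all genes 15.1% and 10.6% were called there. In 22Rv1 6 of 12 rose with siSCR, against 13.8% of all genes called, and 7 of 12 with siMETTL3, against 13.5% (median 0.84 and 0.86, all genes 0.00 and 0.00). The response of 11 of the 12 was called lower in 22Rv1 than in LNCaP:C4-2 with either pool, as was that of ARLNC1, where 16.8% and 15.3% of all genes passed. The DRAIC response was not called different between the lines (-0.06 and 0.36), and with siMETTL3 the interval, -0.08 to 0.81, reached past 1.5-fold.

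Genes whose log2 CPM ran most like a member over the 12 libraries of a line were LMO4, GOLIM4 and EVC for DRAIC in LNCaP:C4-2 (Pearson's r 0.98, 0.98 and 0.98) and TSPAN8, ID4 and CAT in 22Rv1 (0.99, 0.99 and 0.98). For ARLNC1 they included LAMA1 and CNDP2 in LNCaP:C4-2 (0.98 and 0.97) and were CSTPP1, LITAF and CAV2 in 22Rv1 (0.95, 0.94 and 0.92). For NEAT1 they were GOLGA8A, SNHG1 and CCNL2 in LNCaP:C4-2 (0.91, 0.89 and 0.87) and MOCOS, SLC43A1 and SLC35F6 in 22Rv1 (0.99, 0.99 and 0.98). For GAS5 they included EGF and GTF2E1 in LNCaP:C4-2 (0.92 and 0.90) and were SARS1, NCK1 and ACP1 in 22Rv1 (0.98, 0.98 and 0.97). MALAT1 was closest to MAP3K4 in LNCaP:C4-2 (0.84) and to the mitochondrial ribosomal RNA MT-RNR1 in 22Rv1 (0.96). For PVT1 the nearest named genes were PRADX in LNCaP:C4-2 (0.83) and DAXX in 22Rv1 (0.89), for PCAT1 C17orf75 (0.94) and RFTN1 (0.81), and for SCHLAP1 KCNIP2 in LNCaP:C4-2 (0.88). The 12 libraries of a line share groups, depth and scaling, so these values describe likeness only.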

How the data were processed

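RNA-seq of 24 libraries was analysed, 3 for each of 8 groups assigned from the sample labels. For the upstream steps the authors used Trim Galore to trim, STAR to align on GRCh38, and featureCounts 1.5.0 with Ensembl 83 genes to count. The deposited values are raw counts per gene without normalization. Counting was unstranded, so reads of overlapping antisense genes cannot be told apart, and the library chemistry is not given in the sources used here.

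The members and all gene lists were chosen with earlier results of these data known. edgeR 4.0.16 in R 4.3.3 (TMM, filterByExpr with a count minimum of 10 and a total minimum of 15, glmQLFit, glmQLFTest) was run on all genes, with the 12 libraries of a line together (8 residual degrees of freedom) or all 24 for comparisons between lines (16). Calls needed a Benjamini-Hochberg adjusted p under 0.05 and at least 1.5-fold (log2 0.585), and no fold for interactions. Tests are two-sided. Levels are CPM on a TMM scale shared by the 24 libraries, while fold changes within a line come from the fit of that line. TPM used the exon lengths in the files.

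Named genes were the 10 members, METTL3, at most 6 called genes per list and comparison (mean 1 CPM or more), and the 3 genes of highest Pearson's r with each member (prior count 2). A gene named outside this rule is marked, or is a member of the list of reported partners. DESeq2 1.42.0 and other scalings, filters, fits and library sets were alternatives. Sequences and motifs were read with Python 3.11.15 (numpy 2.4.6, pandas 2.3.3, scipy 1.17.1), and figures drawn with matplotlib 3.10.9. On simulated data with the depths of these libraries, genes changed by 1 log2 unit were called in 74.5% of cases in the LNCaP:C4-2 R1881 comparison (16435 genes) and 79.5% in that of 22Rv1 (17865 genes). For the knockdown the shares were 76.5% and 80.0%, and for the interaction 50.5% and 73.5%. Of the genes called in these comparisons within a line, 0.625% to 7.55% had not been changed. In the fit of all 24 libraries the share called was 70% between the lines, with 3.45% of the called genes unchanged. For the difference between lines in the R1881 response, the test behind the NEAT1 and ARLNC1 differences, it was 56.5%, with 9.6% unchanged. For that in the knockdown it was 52%, with 5.45% unchanged. The simulation held no outlying libraries like the first siMETTL3 vehicle and siSCR R1881 replicates of LNCaP:C4-2. The share found in the real data can therefore be lower. The labels do not say whether replicate numbers pair the libraries, which were treated as unpaired. Deviations from group means of same-numbered libraries had a mean correlation of -0.0173 in LNCaP:C4-2 (18 pairs, -0.337 to 0.195). In 22Rv1 it was -0.01 (18 pairs, -0.228 to 0.152). A mean near 0 does not exclude pairing. Some genes that the rule on named genes or a list would name are not reported here.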

Additional observations from a re-analysis of the deposited data

Results flagged for a closer look

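The R1881 response of ARLNC1 differed between the lines by the test of the difference itself, in edgeR's quasi-likelihood fit of all 24 libraries with Benjamini-Hochberg adjustment. It was -3.77 (log2, 22Rv1 minus LNCaP:C4-2, adjusted p = 7.19e-06) with siSCR, where the gene was higher with R1881 in 3 of 3 LNCaP:C4-2 libraries and lower in 3 of 3 22Rv1 libraries than in any vehicle library of the line. With siMETTL3 it was -4.21 (adjusted p = 6.52e-06), with the same separation. In 22Rv1 the fall itself was called with siMETTL3 alone.

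The R1881 response of NEAT1 differed between the lines with siSCR by 0.77 (adjusted p = 0.033). The 3 R1881 libraries of 22Rv1 were all above the vehicle libraries, and those of LNCaP:C4-2 were spread on both sides. The value was 0.43 (adjusted p = 0.124) without LNCaP:C4-2 siSCR R1881 replicate 1, in which MALAT1 was also lowest.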

How the results depend on the processing

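Of 29 called comparisons of a member, 29 kept their direction and 21 kept their call under all alternatives that could be fitted, and of 110 others 47 changed sign and 10 were called under some alternative. With at least 10 counts in every library, which removes low members before the test, called members numbered 1 in LNCaP:C4-2 for R1881 with either pool, 1, 3, 2 and 1 between the lines (siSCR vehicle, siSCR R1881, siMETTL3 vehicle, siMETTL3 R1881), and 1 with siSCR and 0 with siMETTL3 for the difference between lines in the R1881 response. Removal is not the only reason, since DRAIC was still tested between the lines in siSCR vehicle libraries and was no longer called, which left GAS5. With no fold threshold 5 members differed between the lines in siMETTL3 R1881 libraries. With RLE size factors 1 member remained for the difference in response with siSCR, and with no filter on low counts 2 were called with siMETTL3, NEAT1 in addition. Leaving out 1 library at a time gave 1 to 2 called members for that difference with siSCR, 4 to 7 between the lines in siSCR R1881 libraries, and counts within 1 of those reported elsewhere. The knockdown of METTL3 itself in LNCaP:C4-2 vehicle libraries was -0.61 (adjusted p = 0.054) with only the 6 libraries compared, and -0.66 to -0.55 with 1 library left out. In R1881 it was -0.57 and called with no fold threshold, and -0.65 to -0.52 with 1 library left out.

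With the replicate block, 2 members in place of 3 were called for R1881 in LNCaP:C4-2 with siSCR, PCAT1 being lost (-0.97, adjusted p = 0.0643), and no other call of a member changed. Whether the numbers pair the libraries is not known, so the PCAT1 call depends on that choice. Depth limits PCA3, PCGEM1, SCHLAP1 and, in 22Rv1, PCAT1, which held few counts and were either not tested or had intervals that reached past 1.5-fold.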
